A study of Mus musculus with 4 samples.

Results

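The interleukin-1 family genes described here are 10: the agonist ligands Il1a, Il1b, Il36a, Il36g and Il33, the receptor antagonists Il1rn and Il36rn, and the receptor genes Il1r1, Il1rap and Il1r2. They were taken by name from the 55335 genes of the deposited count tables, after the exon counts of each gene were summed. All 4 libraries came from mice with loxP-flanked Mettl3 alleles (Mettl3fl/fl), aged 8 to 12 weeks, whose backs received imiquimod cream (5%) each day for 5 days, at 15 or 62.5 mg per day. The amount for each mouse is not stated. The 2 control libraries have no Cre in their genotype label, and the 2 knockout libraries were from Mettl3fl/fl;Cd4-Cre mice, in which Cre recombinase is driven by the Cd4 promoter. That promoter is active in developing thymocytes, so both mature CD4 and CD8 T cells descend from cells that had Cre, and other skin cells are not its target. Mettl3 encodes the enzyme that writes N6-methyladenosine on RNA. The tissue label is skin, the cell label is CD4+ T cells, and no sorting gate is stated. The comparison asks how transcript levels in libraries of this label differed between the 2 genotypes.

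Interleukin-1α and interleukin-1β are alarm cytokines that bind the same receptor, Il1r1, which signals only after it recruits the accessory chain Il1rap. The receptor antagonist Il1rn occupies Il1r1 without recruiting that chain, and Il1r2 is a decoy that binds ligand but has no signalling domain. The interleukin-36 cytokines act in the same way through Il1rl2 and Il1rap, with Il36rn as their antagonist, and they are known for driving psoriasis-like skin inflammation together with interleukin-17. In inflamed skin, interleukin-1β comes mainly from macrophages, monocytes and neutrophils, while interleukin-1α, the interleukin-36 cytokines and interleukin-33 are also made by keratinocytes and other barrier cells.

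In these libraries, Il1a, Il1b, Il36a and Il1rn were higher in both knockout libraries than in both controls, and Il1rap was lower in both. The group means differed 5.29-fold for Il1a, 2.49-fold for Il1b and 2.30-fold for Il1rn, and the knockout mean of Il1rap was 0.428 times the control mean. The levels of Il36g, Il1r1 and Il1r2 overlapped between the genotypes, and Il33 and Il36rn had fragments in 1 library only. None of the 8 members that passed the filter on low counts reached the threshold of an adjusted p of 0.05 (edgeR quasi-likelihood test, Benjamini-Hochberg adjustment over 12434 genes, adjusted p = 0.9997 for each). The same test called 0% of all genes, and 1.50% of them (187) had an unadjusted p under 0.05. DESeq2 called 17 of the 12434 genes (0.137%) and limma-voom 0, and edgeR without the filter on low counts called 27 of 24651 genes (0.110%). None of the 8 tested members was called in these fits, nor were Il33 and Il36rn in the fit without the filter, which tested all 10. The statements on members are therefore descriptions of 4 libraries, and a p-value here measures the spread between these libraries, since nothing states how many mice or sorts lie behind them.

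Among all tested genes, 19.5% had both knockouts above both controls, and 11.2% had both below. Of the 8 tested members, 4 were above and 1 below, while 3 overlapped. A positive fold change was found for 6 of the 8, against 56.9% of all tested genes. The median log2 fold change was 0.83 over the 8 tested members and 0.20 over all tested genes. Il33 and Il36rn, the other 2 members, did not pass the filter and are given by their fragments.

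**Figure D1:**
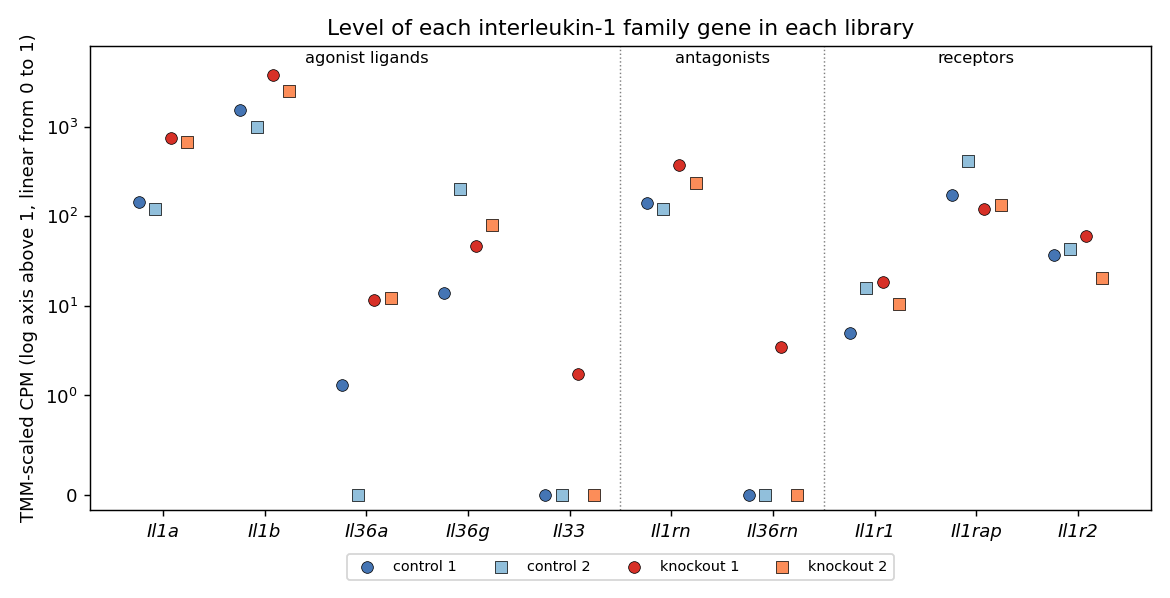
TMM-scaled CPM (log axis above 1 and linear below) of the 10 genes in each of the 4 libraries, grouped by role; 1 point is 1 library. Both knockout points lie above both control points for Il1a, Il1b, Il36a and Il1rn and below them for Il1rap.

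Counted fragments per library numbered between 3614418 and 4537006, and the limit set by 0 fragments (3 fragments, counting error only) was 0.655 to 0.792 CPM, depending on the library. Control 2 stood apart from the other 3 libraries. It had fragments of 11424 genes, against 16273 to 20100 in the others, and its keratinocyte markers summed to 20868 CPM, against 847 to 1948 CPM. Mettl3 itself checked nothing about the deletion: its 195 and 49 fragments in controls and 121 and 158 in knockouts all lay in 6 exon entries, 0 of which belong to protein-coding transcripts. The cell label was checked against T cell genes, and Cd4 had 777, 0, 420 and 9 fragments in control 1, control 2, knockout 1 and knockout 2. This order of libraries is used for every list of 4 values below. The 10 T cell markers summed to 980.1, 313, 276 and 142 CPM. The 10 macrophage and monocyte markers summed to 17785, 8745, 27745 and 25764 CPM. The label of CD4+ T cells was thus not borne out in control 2 and knockout 2, where Cd4 had 0 and 9 fragments. Control 1 and knockout 1 held Cd4 fragments, but in every library the macrophage and monocyte sum was above the T cell sum. Such sums depend on which bases could be counted and do not give shares of cells. The counts are per annotated exon, and a fragment that touched more than 1 annotated entry was not counted, so the bases of a gene that lie in exactly 1 entry are called countable here.

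Among the ligands, Il1a (ENSMUSG00000027399, GRCm38 chromosome 2, 129299610 to 129309972, minus strand) encodes interleukin-1α, which is active without cleavage and is released by damaged cells. It had 671, 460, 2968 and 2862 fragments, or 146, 121, 741 and 677 CPM. The knockouts were close to each other, the controls were close to each other, and the genotypes lay far apart. Controls averaged 134 ± 17.7 CPM and knockouts 709 ± 45.4 CPM (SD, n = 2 each). The log2 fold change of 2.40 had a standard error of 0.53 (edgeR, unadjusted p = 0.00541, adjusted p = 0.9997), and it lay between 2.27 and 2.61 when each library was left out in turn. Il1a was the only member with an unadjusted p under 0.05 in edgeR, a level reached on the higher side by 0.877% of tested genes.

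Il1a has 7 exons in 1 annotated transcript, so all of them could be counted except where an antisense exon of Gm14023 covers most of 1 coding exon. The last exon (129299610 to 129300899, 1290 bases, of which 186 are coding and the rest are 3' untranslated) held 557, 460, 2479 and 2438 fragments. The other 6 exons held 114 of 671 fragments in control 1, which is 17.0% (exact 95% interval 14.2 to 20.0). They held 489 of 2968 in knockout 1, which is 16.5% (15.2 to 17.9), and 424 of 2862 in knockout 2, which is 14.8% (13.5 to 16.2). In control 2 they held 0 of 460, which allows a share of up to 0.652% by the limit of 3 fragments (exact 95% upper bound 0.799%). The fragments counted for Il1a in control 2 thus lay in the last exon alone, at 94.1 CPM per countable kilobase, beside 94.3 in control 1, 479.6 in knockout 1 and 447 in knockout 2. Within the last exon, the knockouts were above the controls by about the same ratio as over the whole gene, and for the upstream exons the only control library with fragments was control 1.

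Il1b (ENSMUSG00000027398, chromosome 2, 129364570 to 129371139, minus strand) encodes interleukin-1β, made as a precursor that inflammasome caspase-1 cleaves. It had 7096, 3763, 15271 and 10689 fragments, the most of any member in every library, or 1549, 993, 3812 and 2527 CPM. The lower knockout was above the higher control, and the libraries of one genotype differed from each other more than they did for Il1a. Controls averaged 1271 ± 393 CPM and knockouts 3169 ± 908 CPM (SD, n = 2 each), with a log2 fold change of 1.32 and a standard error of 0.53 (edgeR adjusted p = 0.9997). It was 1.02 without knockout 1 and 1.74 without control 1.

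The fragments of Il1b were spread over its exons in all 4 libraries, unlike those of Il1a in control 2. The last exon (129364570 to 129365238) held 71.2%, 68.7%, 65.6% and 72.7% of them. An entry given to a retained-intron transcript alone held 1.03%, 4.97%, 3.22% and 1.47%, so its share was highest in control 2 and did not separate the genotypes. Exons of the antisense gene Il1bos overlap this gene, and fragments that touched the shared bases were not counted. Counting was without strand, so an antisense fragment elsewhere in an Il1b exon would count for Il1b. In the countable bases of the last exon, Il1b was at 1999, 1237, 4528 and 3328 CPM per kilobase, above Il1a in its last exon in each library.

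Il1a and Il1b lie next to each other, 54597 bases apart, with 0 protein-coding genes of GENCODE M21 wholly between them. Il1a fragments per 100 Il1b fragments were 9.46 and 12.2 in controls and 19.4 and 26.8 in knockouts, a ratio that was chosen after the values were seen. Both knockouts were above both controls, so the distance between the genotypes was wider for Il1a than for Il1b in these libraries.

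The bases just upstream of the RefSeq starts of Il1a, Il1b and Il1rn are shown because these are the 3 members with over 100 CPM in every library that were higher in both knockouts. Each is 150 bases long, 5' to 3' on the gene's strand, from RefSeq with build GRCm38.p6, and ends 1 base before the start. The Il1a bases are chr2:129309973-129310122 (minus strand), those of Il1b chr2:129371140-129371289 (minus strand), and those of Il1rn, at the upstream of its 3 starts, chr2:24336710-24336859 (plus strand). Capitals mark matches to TATAAA, to the AP-1 letters TGANTCA and to a loose form of the NF-kB site (GGG, any 5 bases, then CC).
Il1a: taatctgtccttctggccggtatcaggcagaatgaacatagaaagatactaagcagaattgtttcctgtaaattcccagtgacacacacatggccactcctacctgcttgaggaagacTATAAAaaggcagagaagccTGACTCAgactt
Il1b: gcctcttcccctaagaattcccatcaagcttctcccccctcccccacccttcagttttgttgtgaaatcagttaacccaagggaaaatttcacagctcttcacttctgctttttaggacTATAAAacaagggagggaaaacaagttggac
Il1rn: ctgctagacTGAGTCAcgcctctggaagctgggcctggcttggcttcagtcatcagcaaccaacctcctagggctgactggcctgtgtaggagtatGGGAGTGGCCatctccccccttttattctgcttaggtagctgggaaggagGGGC

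Il1a and Il1b each had a TATAAA match, beginning 32 and 31 bases before the start, and Il1a had an AP-1 match 12 bases before it. Il1rn had an AP-1 match 141 bases before the start and NF-kB matches 54 and 4 bases before it, of which the second runs past the bases shown. RefSeq gave 14 start windows (250 bases before to 50 after the start) for 9 of the 10 members, all but Il36a, and the letters were searched on both strands of each. TATAAA, chosen after the sequences were seen, was in 5 of the 14 and in 13.6% of all 32851 windows. The matches include one 203 bases before an Il33 start and a reverse-strand one 14 bases after an Il1rn start. The downstream Il1rn windows overlap and share an NF-kB match, so the windows are not separate. TGANTCA was in 2 of 14 and 7.81% of all, the NF-kB letters in 7 of 14 and 50.8% of all, and the C/EBP letters TTGCNNCAA in 0 of 14 and 2.08% of all. A match is a string of letters and was not tested for binding.

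Il36a (ENSMUSG00000026984, chromosome 2, 24215418 to 24225702, plus strand) encodes interleukin-36α. It had 6, 0, 47 and 52 fragments, or 1.31, 0, 11.7 and 12.3 CPM. Both knockouts were well above both controls, and the control side rests on 6 fragments. Pooled over each genotype, 99 fragments against 6 gave a ratio of 16.8 after library size (exact 95% interval 7.44 to 46.8, counting error only). edgeR gave a log2 fold change of 4.12 (standard error 2.34, adjusted p = 0.9997), which was 3.16 without control 2. Without control 1 the control side has no fragment, and the fitted 8.61 is not a bound. Against control 2 alone, with its 0 fragments set at the floor of 3, knockout 1 was 14.8-fold higher and knockout 2 15.5-fold. Only the 0 of control 2 is bounded in these values, and the counting error of the knockout fragments is not included. Control 2 had fragments of the fewest genes, which limits what its 0 shows. Of the 883 exonic bases of Il36a, 404 were countable. The 3 exons with fragments held 1, 0, 9 and 14 in the first, 3, 0, 29 and 30 in the next and 2, 0, 9 and 8 in the last, so each gave the same order of genotypes.

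Il36g (ENSMUSG00000044103, chromosome 2, 24186476 to 24193568, plus strand) encodes interleukin-36γ, a keratinocyte cytokine abundant in psoriatic skin. It had 64, 770, 187 and 342 fragments, or 14.0, 203, 46.7 and 80.8 CPM. Control 1 was the lowest library and control 2 the highest, with both knockouts between them, so the control mean of 109 ± 134 CPM (SD, n = 2) describes neither control. edgeR gave a log2 fold change of -0.77 (standard error 1.30), which was 2.18 without control 2 and -1.61 without control 1. Per 1000 CPM of keratinocyte markers, Il36g stood at 10.9, 9.74, 24.0 and 95.4 CPM, a ratio chosen after the values were seen. On that scale both knockouts were above both controls, while relative to the macrophage, neutrophil, T cell and dendritic cell markers the genotypes overlapped.

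Il33 (ENSMUSG00000024810, chromosome 19, 29925114 to 29960718) encodes a nuclear alarmin of barrier cells, read by Il1rl1. It had 7 fragments, all in knockout 1, which is 1.75 CPM. Only 364 of its 2886 exonic bases were countable, so the zeros of the other 3 libraries say little about its level. Il36rn (ENSMUSG00000026983, chromosome 2, 24276954 to 24283426), the interleukin-36 receptor antagonist, had 14 fragments in knockout 1 (3.49 CPM) and 0 elsewhere. All 14 lay in an entry given to a retained-intron transcript alone (24277271 to 24279078), so none was counted in an entry of a coding transcript.

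**Figure D2:**
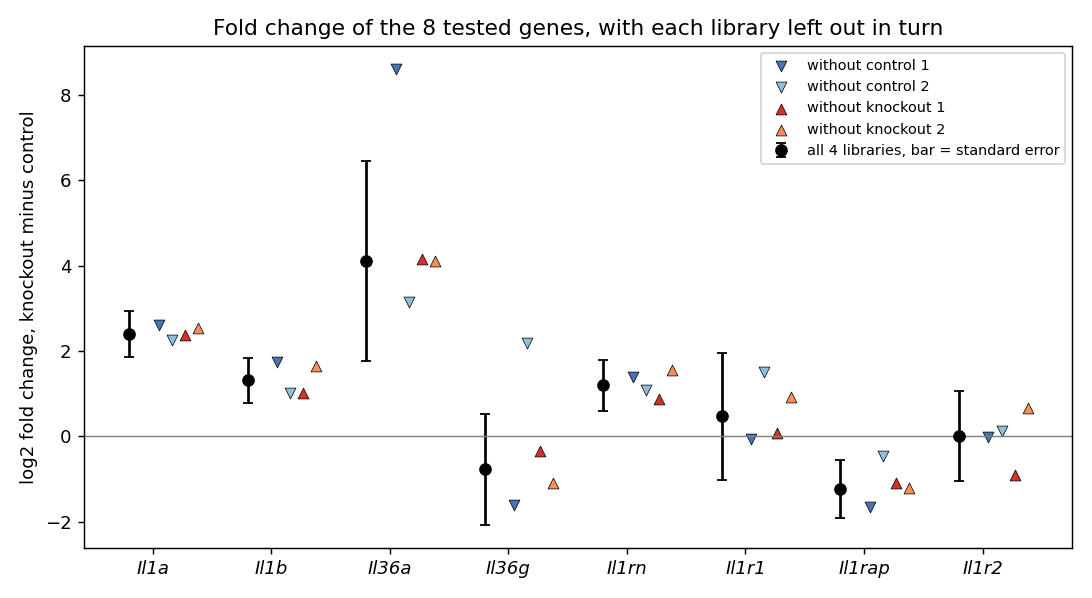
Log2 fold change (knockout minus control) of the 8 tested genes in edgeR with all 4 libraries (black, bar is the standard error) and with each library left out in turn (triangles). Il1a, Il1b, Il36a and Il1rn stay above 0 and Il1rap stays below it in all 5 fits, while Il36g, Il1r1 and Il1r2 cross 0.

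The receptor antagonist Il1rn (ENSMUSG00000026981, chromosome 2, 24336853 to 24351494, plus strand) had 648, 460, 1484 and 989 fragments, or 141, 121, 370.4 and 234 CPM. Both knockouts were above both controls, with knockout 1 highest. Controls averaged 131 ± 14.2 CPM and knockouts 302 ± 96.6 CPM (SD, n = 2 each). Its log2 fold change was 1.20, with standard error 0.60 (edgeR adjusted p = 0.9997). It was 0.87 without knockout 1 and 1.56 without knockout 2.

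Il1rn is transcribed from an upstream start, which gives intracellular forms, and from downstream starts, which give the secreted form. The shared coding exons could not be counted, and the fragments fell in 3 entries that do not measure these forms separately. The last exon of the transcript Il1rn-204 (24349415 to 24351494), countable over its last 558 bases, held 498, 162, 1273 and 934 fragments, or 195, 76.6, 569 and 396 CPM per countable kilobase. In this stretch, which is 3' untranslated, control 2 was lowest and both knockouts were above both controls. An entry of a retained-intron transcript at the upstream start (24336856 to 24339409) held 54 of 648 fragments in control 1, which is 8.33% (exact 95% interval 6.32 to 10.7). It held 200 of 460 in control 2, which is 43.5% (38.9 to 48.1), and 99 of 1484 in knockout 1, which is 6.67% (5.45 to 8.06). In knockout 2 it held 0 of 989, which allows a share of up to 0.303% by the limit of 3 fragments (exact 95% upper bound 0.372%). Without such entries the log2 fold change of Il1rn was 1.62. Another entry (24345943 to 24346354), given to a processed transcript, held 96, 98, 112 and 55 fragments and did not separate the genotypes.

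The balance of antagonist to agonist was given by Il1rn fragments per 100 Il1b fragments, which were 9.13, 12.2, 9.72 and 9.25. The knockouts lay between the controls. Without retained-intron entries the ratio was 8.46, 7.27, 9.37 and 9.39, and both knockouts were then slightly above both controls. Summed over all their entries, both genes were thus higher in the knockouts by similar factors. In the last exon alone, the log2 ratio of the group means was 1.83 for Il1rn and 1.28 for Il1b. The similarity and the order of the ratio therefore depend on which entries are summed. Ratios of 2 genes depend on which exons could be counted, and only the comparison of 1 ratio between libraries is read here.

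**Figure D3:**
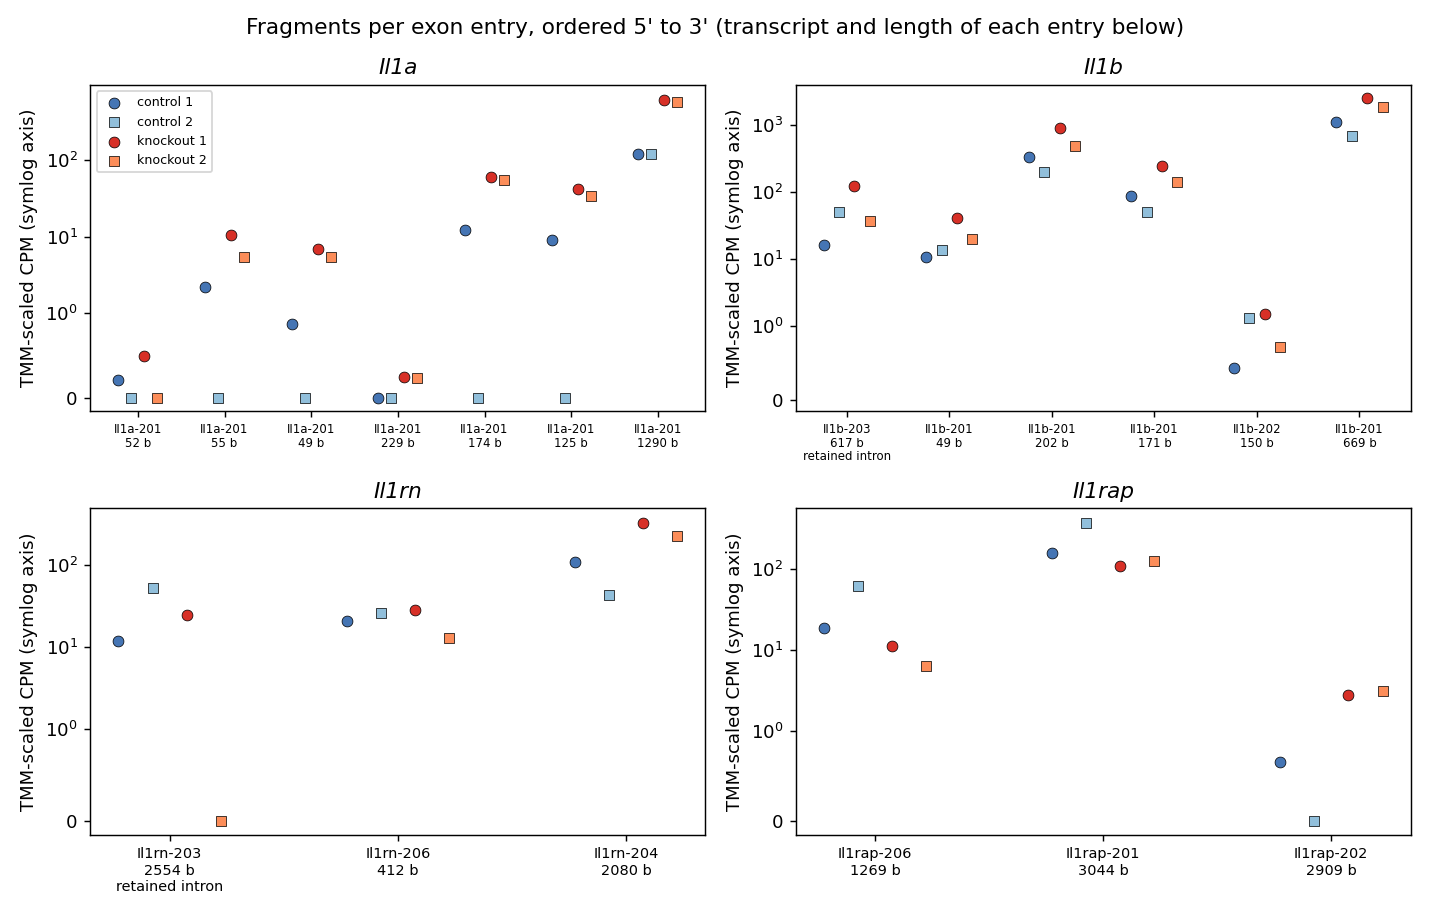
TMM-scaled CPM in each exon entry that held fragments, ordered 5' to 3', for Il1a, Il1b, Il1rn and Il1rap in the 4 libraries (axis logarithmic above 1, linear below). Control 2 has points above 0 in the last exon of Il1a only, while it has the highest point in the retained-intron entry of Il1rn.

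Among the receptor genes, Il1rap (ENSMUSG00000022514, chromosome 16, 26581704 to 26730117, plus strand), the shared accessory chain of the interleukin-1, interleukin-33 and interleukin-36 receptors, had 803, 1591, 485 and 566 fragments, or 175, 420.0, 121 and 134 CPM. Both knockouts were below both controls, and control 2 stood far above the other 3. Controls averaged 298 ± 173 CPM and knockouts 127 ± 9.02 CPM (SD, n = 2 each), with a log2 fold change of -1.22 and a standard error of 0.68 (edgeR adjusted p = 0.9997). Without control 2 it was -0.47, so most of the difference rested on that library.

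The last exons of 3 coding forms of Il1rap hold its fragments. The entry of Il1rap-201 (26714701 to 26717744), whose product has 570 residues and spans the membrane, held 716, 1363, 429 and 526. The entry of Il1rap-206 (26701088 to 26702356), whose product has 360 residues and ends before the membrane, held 84, 228, 45 and 27. The Il1rap-206 entry held 10.5% of the fragments counted for Il1rap in control 1, with exact 95% bounds of 8.43 and 12.8. In knockout 1 it held 9.28%, with bounds of 6.85 and 12.2. Its share was 14.3% in control 2 (bounds 12.6 and 16.1) but 4.77% in knockout 2 (bounds 3.17 and 6.86). The share was below both controls in both knockouts, but control 1 and knockout 1 differed by less than counting error. The entry of Il1rap-202 (26722356 to 26725264), whose product has 685 residues and differs at its C terminus, held 3, 0, 11 and 13. For this entry the order of the genotypes was the opposite, at counts that are small in every library. The entries of Il1rap-201, Il1rap-206 and Il1rap-202 have 2676, 1120 and 1200 countable bases. Gm20319 also overlaps entries of Il1rap that hold fragments, and counting was without strand. The shares are therefore of counted fragments and do not measure shares of the forms.

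Il1r1 (ENSMUSG00000026072, chromosome 1, 40225080 to 40317257, plus strand), the signalling receptor for interleukin-1, had 23, 60, 74 and 44 fragments, or 5.02, 15.8, 18.5 and 10.4 CPM. The genotypes overlapped, with controls at 10.4 ± 7.65 CPM and knockouts at 14.4 ± 5.71 CPM (SD, n = 2 each), and the log2 fold change of 0.47 (standard error 1.49) was -0.07 without control 1. Its long last exon is shared by 2 transcripts and could be counted only in part, with 0 fragments there. The first exon (40225080 to 40225306), the only entry of a coding transcript with fragments, held 14, 24, 49 and 41 of them, or 3.06, 6.34, 12.2 and 9.69 CPM. In this exon both knockouts were above both controls, and the overlap over the whole gene came with the entries of a processed transcript, which held the remaining fragments.

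Il1r2 (ENSMUSG00000026073, chromosome 1, 40074079 to 40125231), the decoy receptor, had 169, 163, 242 and 87 fragments, or 36.9, 43.0, 60.4 and 20.6 CPM. The controls lay between the knockouts, at means of 40.0 ± 4.34 and 40.5 ± 28.2 CPM (SD, n = 2 each). The log2 fold change of 0.02 had a standard error of 1.05, was -0.91 without knockout 1 and -0.02 without control 1, and leaves room for a difference in either direction. Of all its fragments, 94.7% lay in the first exon of Il1r2-203 (40085985 to 40086302), a short transcript. Only 595 of its 1908 exonic bases were countable. Il1r2 fragments per Il1r1 fragment were 7.35, 2.72, 3.27 and 1.98, with the knockouts overlapping the controls. Given the entries that held the fragments of each gene, this ratio does not measure decoy against signalling receptor.

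The libraries differed in markers of the cells that make these cytokines, and these differences lay alongside those of several members. The 10 macrophage and monocyte markers summed to 17785, 8745, 27745 and 25764 CPM. The log2 fold change was positive for all 10, at a median of 1.35, and 8 of 10 had both knockouts above both controls. They were led by Lyz2, the lysozyme of myeloid cells, at 9378, 3876, 14351 and 10809 CPM. Neutrophil markers summed to 368, 251, 1581 and 741 CPM over 8 genes, nearly all of it Mmp8, a collagenase of neutrophil granules, at 343, 231.5, 1527 and 643 CPM. Only 3 of the 8 passed the filter, of which 2, Mmp8 and S100a8, had a positive log2 fold change. Both were above in both knockouts, with S100a8 at 11.6, 19.3, 42.9 and 74.0 CPM (log2 fold change 1.92). The remaining gene that passed was Mmp9, a gelatinase, at 12.9, 0, 2.50 and 0.24 CPM (log2 fold change -2.22). S100a8 and Mmp9 are named after their values were seen. Of the defining neutrophil genes, Ly6g was at 0 in all 4 libraries with 607 countable bases. S100a9 was also at 0, but only 13 of its bases were countable. The 10 T cell markers summed to 980.1, 313, 276 and 142 CPM, and all 10 had a negative log2 fold change, with a median of -1.31 and 5 of 10 below in both knockouts. None of these markers passed the threshold in edgeR. Over all tested genes, 56.9% had a positive log2 fold change, 19.5% were above in both knockouts and 11.2% below.

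Keratinocyte markers summed to 1283, 20868, 1948 and 847 CPM, led by Perp, a desmosome protein, at 227, 6580, 443 and 100.5 CPM. Of the 9 markers, 8 had a negative log2 fold change, at a median of -2.98 over the list. Both knockouts were below both controls for 3 of the 9, beside 11.2% of all tested genes. Il36g and Il1rap were highest in the library with the highest keratinocyte sum, control 2, and Il36a had 0 fragments there. Fibroblast markers summed to 12029, 2583, 5598 and 5700.1 CPM, led by the matrix metalloproteinase Mmp2. Dendritic and Langerhans cell markers summed to 2012, 344, 1535 and 817 CPM and were led by the chemokine receptor Ccr7. Mast cell markers, led by the protease Cpa3, summed to 171, 97.4, 135 and 374 CPM, and endothelial markers, led by Kdr, to 31.2, 6.34, 18.7 and 39.2 CPM, with Tie1 at 0 in all 4. In such bulk libraries, more cells of a type and more RNA per cell cannot be told apart. The part of these cells in the members' levels was not tested.

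Ratios to the sums of 5 marker lists, chosen after the values were seen, differed between the members and between the lists. Per 1000 CPM of macrophage and monocyte markers, Il1a was at 8.24, 13.9, 26.7 and 26.3 CPM, with both knockouts above both controls. Il1b was at 87.1, 114, 137 and 98.1 on the same scale, and Il1rn at 7.95, 13.9, 13.3 and 9.07, and for both genes the genotypes overlapped. With each of the 10 markers in turn as the denominator, both knockouts were above both controls for 5 markers with Il1a, 1 with Il1b and 1 with Il1rn. Per 1000 CPM of neutrophil markers, Il1a was at 398, 484, 469 and 913 CPM and overlapped. Il1b, at 4204, 3957, 2411 and 3408, and Il1rn, at 384, 484, 234 and 315, were below in both knockouts on this scale, which rests mainly on Mmp8. Both genes were above in both knockouts relative to keratinocyte and T cell markers and overlapped relative to dendritic cell markers, so their order followed the list chosen. Il1a was above on 4 of the 5 scales and Il36a on 5 of 5, which are not separate tests. The T cell sum was lower in both knockouts, so any gene above in both knockouts must also be above on that scale. Il36a had 6 and 0 fragments in controls, so its control ratios are at or near 0 on any scale. Il1rap was below relative to macrophage and neutrophil markers and overlapped on the other 3 scales, such as 137, 20.1, 62.1 and 158 CPM per 1000 CPM of keratinocyte markers.

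**Figure D4:**
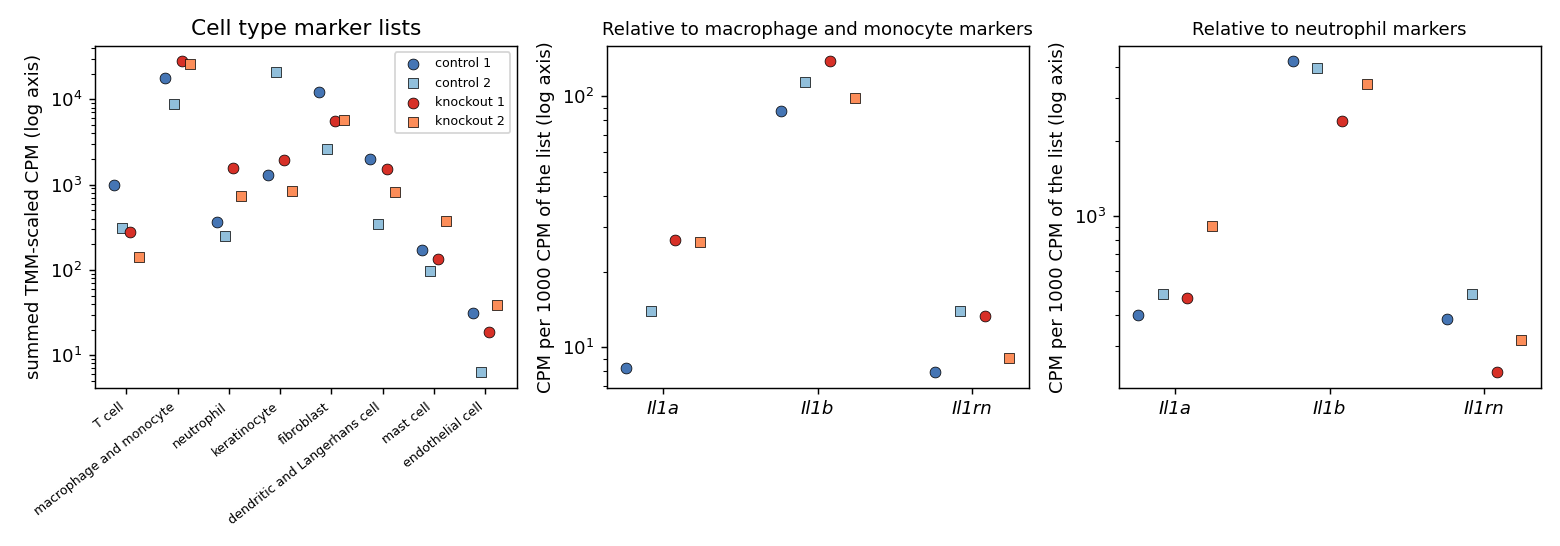
Left, summed TMM-scaled CPM of 8 cell type marker lists in each library; middle and right, CPM of Il1a, Il1b and Il1rn per 1000 CPM of macrophage and monocyte markers and of neutrophil markers (log axes). Relative to macrophage markers the knockouts are above the controls for Il1a and overlap them for Il1b and Il1rn; relative to neutrophil markers Il1a overlaps and the knockouts are below for Il1b and Il1rn.

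The rest of the pathway was read from 49 listed genes, of which 40 passed the filter. edgeR called 0 of the 40, with 27 positive and 13 negative log2 fold changes and a median of 0.43, beside 0.20 for all tested genes. Both knockouts were above both controls for 11 of the listed genes that passed and below for 5. The shares over all tested genes were 19.5% above, 11.2% below and 56.9% with a positive fold change. The counts of each list below are read beside these shares.

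The other receptors of the family were lower or overlapping. All 5 had a negative log2 fold change, with a median of -0.81. Of these, 3 of 5 were below in both knockouts, beside 11.2% of all tested genes. Il1rl2, the interleukin-36 receptor, was at 163, 319.7, 148 and 147 CPM (log2 fold change -0.71, standard error 0.64), with control 2 highest as for Il1rap. Il18rap, the accessory chain of the interleukin-18 receptor on lymphocytes, was at 92.6, 77.9, 64.6 and 40.2 CPM (-0.70). Il1rl1, the interleukin-33 receptor of type 2 lymphocytes and mast cells, was at 74.2, 0, 4.49 and 37.8 CPM (-0.81), and the genotypes overlapped.

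Of the 4 other ligands and binding proteins, 3 were tested. Il36b, the third interleukin-36 agonist, had 0, 729, 18 and 0 fragments, so nearly all of its fragments came from control 2, the library with the highest keratinocyte sum. Il18, another caspase-1 substrate, was at 1.09, 0, 8.99 and 2.60 CPM, and its antagonist Il18bp was at 4.37, 1.58, 8.24 and 11.1 CPM. Both were above in both knockouts at these low levels, and only 171 of the 1031 exonic bases of Il18 were countable. Il1f10 had 0 fragments in all 4 libraries over 538 countable bases.

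Of 16 signalling genes, 13 were tested, with 10 positive and 3 negative values, a median of 0.51, 3 above in both knockouts and 1 below. Tollip, an adaptor that restrains interleukin-1 receptor signalling, was at 352, 94.2, 608 and 359 CPM (log2 fold change 1.12). The NF-kB subunits Nfkb1 and Rela were at 194, 293, 296 and 293 CPM and at 318, 66.5, 231 and 343 CPM. Nfkb1 differed little between control 2 and the knockouts, and Rela overlapped between the genotypes.

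Of 10 genes that process or release the cytokines, 5 were tested, with a median of 0.74. Capn2, a calpain of the kind that cleaves the interleukin-1α precursor, was at 454, 112, 605.5 and 341 CPM. The inflammasome adaptor Pycard was at 32.5, 81.6, 48.4 and 29.3 CPM, and Gsdmd, whose cleaved form makes the pores through which interleukin-1β leaves, at 40.8, 2.64, 66.1 and 27.7 CPM. The genotypes overlapped for each of the 3. Nlrp3 had 2 fragments in all, with 107 countable bases, so its level could not be read.

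All 14 listed genes that interleukin-1 is known to induce were tested, with 11 positive and 3 negative values and a median of 0.54. Both knockouts were above both controls for 5 of them and below for 1, beside 19.5% and 11.2% of all tested genes. Ptgs2, the inducible cyclooxygenase, was at 765, 814, 4042 and 664 CPM, so knockout 1 stood alone. Icam1, an adhesion molecule, was at 2118, 844, 1312 and 1766 CPM (log2 fold change 0.06). Nfkbia, the NF-kB inhibitor, was at 1167, 1354, 1302 and 1398 CPM (0.10), and both genes overlapped between the genotypes.

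The 5 genes above in both knockouts were the chemokines Cxcl1, Cxcl2 and Cxcl3, the granulocyte growth factor Csf3 and the acute-phase gene Saa3, which are named after their values were seen. Cxcl2 was at 143, 72.6, 542 and 283 CPM (log2 fold change 1.94, standard error 0.69), with only 94 of its 2068 exonic bases countable. Csf3 was at 309, 47.5, 821 and 642 CPM (2.04, standard error 0.96). Ccl20, a chemokine that attracts interleukin-17-producing cells, was at 8.95, 8.45, 2.25 and 0 CPM and was the gene below in both.

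For the member with the highest level in each role, the genes with the nearest pattern over the 4 libraries were taken by the distance between centred log2 values, among 8190 genes. For Il1b these were Atp2b1, Narfl, Hgsnat, Ppid and Mat2a, at distances of 0.0538 to 0.181. For Il1rn they were Tnf, Rab32, Smox, Igha and Sppl2a, at 0.164 to 0.258. Tnf, the other main inflammatory cytokine of macrophages, had 92, 76, 225 and 158 fragments. For Il1rap they were Atxn7, Psmg4, Haus1, Haus4 and Dnajc9, at 0.0519 to 0.135. With 4 libraries many genes share a pattern, and the distances are a description.

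By position, 6 of the 10 members lie on chromosome 2. Il36g, Il36a, Il36rn and Il1rn lie within 165019 bases (24186476 to 24351494), and within this stretch Il36a and Il1rn were above in both knockouts while Il36g overlapped. Il1a and Il1b form the other pair, the receptors Il1r1 and Il1r2 lie on chromosome 1, Il1rap on 16 and Il33 on 19. The letters GGACT, a core of the motif that the Mettl3 complex methylates, are in the longest coding transcript of 8 of the 10 members and of 87.6% of all genes. Il1a has 1, Il1b 2, Il36g 1, Il33 3, Il36rn 5, Il1r2 4, Il1r1 8 and Il1rap 10, and Il1rn and Il36a have 0. The counts per kilobase were 2.82 in Il1r2, 2.21 in Il1rap, 1.47 in Il1b and 0.507 in Il1a, beside a median of 1.01 over all genes (quartiles 0.560 to 1.50). Methylation was not measured in these libraries.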

How the data were processed

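RNA was sequenced from 4 mouse skin libraries, 2 per genotype, with cDNA primed by oligo-dT and amplified by the SMART method per the labels' protocols. The deposited values are raw fragment counts per exon entry, made with featureCounts 2.0.1 on GRCm38 with GENCODE M23 and without strand, per the file headers. The submitters' processing notes name Trim Galore 0.6.7 for trimming and the aligner STAR 2.7.9a. Of 841606 entries, 545076 (64.8%) share their coordinates with another entry and held 0 fragments, and 8.30% of all fragments lay in entries of retained-intron transcripts alone. Transcript types came from GENCODE M21, where Il36a, Il36g and Il36rn are named Il1f6, Il1f9 and Il1f5.

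From these counts, entries were summed per gene, and 55154 of 55335 identifiers had a symbol. Totals were 4537006 and 3614418 fragments in controls and 4316904 and 4353365 in knockouts, numbered in accession order only. edgeR 4.0.16 (R 4.3.3) was run on all 4 libraries with a minimum count of 10, TMM factors and the quasi-likelihood test, two-sided, and was tested on simulated data. Levels are TMM-scaled CPM. DESeq2 1.42.0 and limma 3.58.1 (voom) were alternatives, with other scaling, filters, left-out libraries, a covariate for Y-linked transcripts and no retained-intron entries. Intervals are exact binomial (scipy 1.17.1) and, without molecular identifiers, cover counting error only. Named genes are the 10 members, the 3 genes of each pathway list and the leading gene of each marker list by mean CPM, and the 5 genes nearest in pattern to the leading member of each role (log2(CPM + 0.5), mean of at least 5 CPM). Cd4, Ly6g, S100a8, S100a9, Mmp9, Tie1, Nlrp3, Il1f10, Cxcl1, Cxcl2, Cxcl3, Csf3, Saa3 and Ccl20, members of these lists, and Mettl3 are named outside this rule, after their values were seen. The members and lists were chosen with earlier results of these data known.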

Additional observations from a re-analysis of the deposited data

How the results depend on the processing

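The log2 fold changes of Il1a, Il1b, Il1rn, Il36a and Il1rap kept their sign under every alternative run, none of them passed the threshold under any, and the lowest adjusted p of any member was 0.0597 (Il1a in edgeR without control 1, where all genes had a median of 1.72; over its other alternatives it reached up to 1.0). Il36g, at -0.77, was 0.31 in limma-voom, 0.20 under the Y-linked covariate and between -1.61 and 2.18 when a library was left out. Il1r2, at 0.02, was -0.18 with limma-voom, -0.18 with that covariate and between -0.91 and 0.67 with a library left out, and Il1r1 was between -0.066 and 1.51. Il36a, at 4.12, was between 3.16 and 8.61, and it has no value where every library must hold a fragment. DESeq2 called 17 genes, edgeR without a filter on low counts 27, and edgeR without 1 library 0 to 4, against 0 with all libraries. The control mean of Il1rn fragments per 100 Il1b fragments fell from 10.7 to 7.86 without retained-intron entries. In fits without a library the lone library of a genotype is assumed to vary like the other genotype. Control 2 was both the shallowest library and the one with fewest genes, which limits what its zeros show. Y-linked genes held at least 10 fragments in control 1 and knockout 2 and fewer in the other libraries, so each genotype mixed both kinds. No paired analysis was possible because the labels number no replicates.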
